A study of Homo sapiens with 6 samples.

Results

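In MM.1S, a human line of malignant plasma cells derived from multiple myeloma, 111 protein-coding genes were clearly higher after knockdown of *PRMT1* than in control cells. They were selected on the expression values themselves. A gene had to be protein-coding, lie outside the mitochondrial, X and Y chromosomes, have a mean of at least 3 FPKM (read fragments per kilobase of exon, scaled by library size) over the 6 libraries, have all 3 knockdown values above all 3 control values, and have a mean log2(FPKM + 1) at least 0.35 higher after knockdown. Of the 58735 genes in the table, 19951 were protein-coding and 7918 passed the conditions on type, chromosome and level. Positions of genes are given on hg38. These 7918 are called candidates, and the 111 members are 1.4% of them. Because the rule used the difference between the groups, the differences given for members are a description and are not tested.

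The 6 libraries were RNA sequencing of MM.1S cells transfected with a non-targeting siRNA (si-NC, the control, n = 3) or with an siRNA against *PRMT1* (PRMT1 KD, n = 3), each at 100 nM and collected after 72 h. All libraries shared the cell line and the transfection reagent, Lipofectamine RNAiMAX. Which of the designed *PRMT1* siRNAs was used is not named in the labels, so a change caused by the siRNA sequence and a change caused by the loss of *PRMT1* cannot be told apart. The replicates came from a single cell line, and in such bulk samples fewer cells of a kind and less RNA per cell cannot be told apart.

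PRMT1 is the main enzyme that places asymmetric dimethyl marks on arginine residues of histones, splicing factors, transcription factors and signalling proteins. It can act as a coactivator or a corepressor at promoters, and it also changes how RNA is spliced and exported. Expression alone does not separate direct from secondary responses to its loss. Myeloma cells depend on the growth signal of IL-6, which runs from the IL-6 receptor through JAK kinases and STAT3 to targets such as the PIM kinases, and on a large endoplasmic reticulum (ER) that folds and glycosylates immunoglobulin.

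Reads on genes, worked back from the deposited values, numbered 14439217 to 16465026 per library. *PRMT1* itself, which checks the labels, measured 61.7, 62.8 and 58.9 FPKM in the control libraries and 13.3, 14.02 and 12.5 FPKM in the PRMT1 KD libraries. The knockdown mean was 21.7% of the control mean, a log2 change of -2.13 (SE 0.0552, limma, adjusted p = 2.77e-05). By exact permutation of the 6 libraries the two-sided p was 0.1, which is as small as this design can give. All 10 plasma cell markers were at or above 1 FPKM, with a summed level of 1407 to 1487 FPKM in controls and 1394 to 1559 FPKM after knockdown. Within that sum, *SLAMF7* ran from 37.1 to 39.0 FPKM in controls and from 22.9 to 25.1 FPKM after knockdown. After knockdown *XBP1* and *PRDM1* also lay below every control library, and *CD38* and *MZB1* above every control library. The other plasma cell markers overlapped between the groups. *MS4A1*, which encodes the B cell antigen CD20, was at 0 in every library. Of 10 T and NK cell markers 5 reached 1 FPKM, mainly *CD3E* and *CD4*, while *CD8A*, *KLRD1* and *CD2* had a median of 0 in both groups, and that list summed to 76.1 to 82.0 FPKM in controls and 84.0 to 87.4 FPKM after knockdown. None of 10 myeloid markers reached 1 FPKM (sums of 0.595 to 0.898 and 0.846 to 1.09 FPKM), and of 10 stromal and epithelial markers only *KRT8* did (sums of 21.1 to 23.9 and 20.2 to 20.8 FPKM). The part of these markers in the results was not tested.

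The members were mostly modest in size. Their median difference was 0.40 on log2(FPKM + 1), against 0.02 over all candidates, and the knockdown mean was a median of 137% of the control mean. On log2(FPKM + 1), 10 members differed by at least 1.5 fold. Their mean levels ran from 3.21 FPKM (*DCBLD2*) to 283 FPKM (*HSPA8*). A total of 54 members had a mean under 10 FPKM, and 8 were at or above 50 FPKM. Reads per library ranged from 16 (*DEFB131B*) to 25564 (*HSPA8*), and 5 members had under 100 reads in at least 1 library. Of the candidates, 16.9% had all 3 knockdown values above all 3 control values, 1335 genes, so the limit on the difference removed most of them. It kept 123 candidates whatever their overlap, of which 12 were then left out because the groups overlapped.

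**Figure D1:**
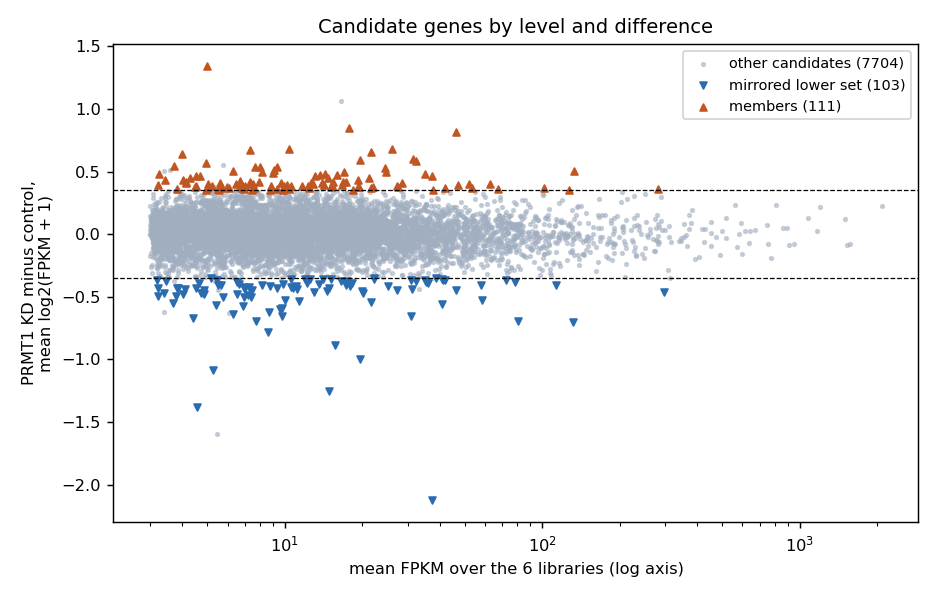
Mean level over the 6 libraries (horizontal, FPKM, log axis) against the mean difference in log2(FPKM + 1), PRMT1 KD minus control (vertical), for the 7918 candidates. Upward triangles are the 111 members, downward triangles the 103 genes of the mirrored lower rule, and dashed lines stand at a difference of 0.35 in either direction. Members lie at all levels, and most sit close to the upper dashed line.

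The promoters of 5 of the 15 members with the largest differences are shown, since they hold the short words by which transcription factors are often sought. RefSeq promoters (build GRCh38.p14, 250 bases before to 50 after the start of the gene, read 5′ to 3′ on the gene's strand) were matched by symbol or unique older symbol for 88 of the 111 members and 6587 of the candidates. Capitals mark any of 9 words searched on both strands: TATAAA of the TATA box, CCAAT of NF-Y, GGGCGG of SP and KLF factors, CACGTG of E-box factors, TGAGTCA of AP-1, TGACGTC of CREB and ATF factors, TGTTTAC of forkhead factors, CCGGAAG of ETS factors, and TTTGAA. Words may overlap. *PIM1* (chr6:37169902-37170201) and *KLF2* (chr19:16324576-16324875) carry repeated GGGCGG words, *TNFSF9* (chr19:6530776-6531075) carries TATAAA 30 bases before the start, *MYB* (chr6:135181058-135181357) TGTTTAC and *IL6R* (chr1:154405093-154405392) TGAGTCA, all on the plus strand.
PIM1: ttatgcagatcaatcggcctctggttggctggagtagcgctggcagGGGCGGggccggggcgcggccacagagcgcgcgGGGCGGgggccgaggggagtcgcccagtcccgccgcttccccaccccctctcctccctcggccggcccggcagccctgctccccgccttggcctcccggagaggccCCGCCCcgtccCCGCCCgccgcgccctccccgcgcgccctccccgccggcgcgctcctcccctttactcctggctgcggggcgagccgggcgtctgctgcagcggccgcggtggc
KLF2: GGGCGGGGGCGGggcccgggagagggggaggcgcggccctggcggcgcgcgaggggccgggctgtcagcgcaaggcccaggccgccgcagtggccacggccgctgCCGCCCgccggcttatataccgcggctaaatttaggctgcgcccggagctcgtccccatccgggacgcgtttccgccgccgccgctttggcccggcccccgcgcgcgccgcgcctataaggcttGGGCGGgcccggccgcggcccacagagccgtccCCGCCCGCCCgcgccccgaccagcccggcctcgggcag
TNFSF9: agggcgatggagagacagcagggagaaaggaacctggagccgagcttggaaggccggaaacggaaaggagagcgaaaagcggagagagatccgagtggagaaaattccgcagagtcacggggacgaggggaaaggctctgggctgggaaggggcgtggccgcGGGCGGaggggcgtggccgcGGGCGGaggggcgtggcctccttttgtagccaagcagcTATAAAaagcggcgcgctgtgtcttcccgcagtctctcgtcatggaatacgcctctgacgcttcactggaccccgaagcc
MYB: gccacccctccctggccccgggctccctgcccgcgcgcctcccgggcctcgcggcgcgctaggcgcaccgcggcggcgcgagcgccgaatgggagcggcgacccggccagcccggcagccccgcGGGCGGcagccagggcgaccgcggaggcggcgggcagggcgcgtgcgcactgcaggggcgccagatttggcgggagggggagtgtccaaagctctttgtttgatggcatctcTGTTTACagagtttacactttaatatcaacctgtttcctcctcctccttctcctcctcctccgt
IL6R: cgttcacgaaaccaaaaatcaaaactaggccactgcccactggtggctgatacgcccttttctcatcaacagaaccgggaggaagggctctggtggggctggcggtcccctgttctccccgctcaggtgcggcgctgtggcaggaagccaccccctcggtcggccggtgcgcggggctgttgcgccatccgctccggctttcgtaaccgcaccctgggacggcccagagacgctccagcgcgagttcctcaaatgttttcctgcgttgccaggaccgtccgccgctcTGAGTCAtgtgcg
No word was shared by all 5. Over the 88 members with a promoter, GGGCGG stood in 72.7%, against 70.7% of candidates and 45% of all 35116 RefSeq promoters of this length. CCAAT stood in 44.3% of member promoters, 37.5% of candidates and 34.6% of all promoters. CCGGAAG stood in 12.5% of member promoters and 22.7% of candidates, and in 17.5% of the 80 promoters of the mirrored lower set. TTTGAA stood in 17% of member promoters, 9.69% of candidates and 7.5% of the lower set. TGTTTAC was found in 3.41% of member promoters and 2.54% of candidates. A word is only a match of letters, and these shares were compared without a test.

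The largest difference belonged to *EIF3CL* (chr16:28379579-28403879 on the minus strand), a near-identical copy of the translation initiation factor gene *EIF3C*, and it rested on 1 library. *EIF3CL* measured 1.11, 1.42 and 1.21 FPKM in controls and 1.74, 1.89 and 22.5 FPKM after knockdown. The groups did not overlap, but the third knockdown library stood alone, with 1060 reads against 57 to 89 in the other 5. Without that library its log2 difference fell from 1.35 to 0.33, below the limit of the rule. *EIF3C* measured 2.93, 4.81 and 4.82 FPKM in controls and 3.999, 2.82 and 4.05 FPKM after knockdown, and the sum of both copies was also high in that library only, at 26.6 FPKM against 4.05 to 6.24 FPKM elsewhere. Reads from the 2 copies can be assigned to either, so the value of *EIF3CL* is uncertain.

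The next largest differences were even across libraries. *TPM4* (chr19:16067021-16103005 on the plus strand) encodes a tropomyosin that coats actin filaments. It measured 12.5, 12.8 and 11.8 FPKM in controls and 22.04, 23.2 and 24.1 FPKM after knockdown, means of 12.4 ± 0.490 and 23.1 ± 1.04 FPKM (SD, n = 3). The groups were far apart, and its gap of 0.74 between the lowest knockdown and the highest control value on log2(FPKM + 1) was the widest of all members. Of its relatives, *TPM3* had means of 73.4 and 74.0 FPKM, and *TPM1* was at 0 in every library.

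*PIM1* (chr6:37170203-37175426 on the plus strand), a serine/threonine kinase induced by cytokine signalling that promotes survival of blood cells, measured 32.5, 33.7 and 33.7 FPKM in controls and 59.9, 61.3 and 56.98 FPKM after knockdown. That is 178% of the control mean, with a gap of 0.74 on log2(FPKM + 1). *IL6R* (chr1:154405193-154469450 on the plus strand), the receptor subunit that binds IL-6, measured 25.9, 24.2 and 24.3 FPKM in controls and 39.2, 38.1 and 37.3 FPKM after knockdown, 154% of the control mean. By the rule every knockdown library was above every control library in both genes, and in *IL6R* the gap was 0.51. *IL6ST*, the signalling subunit gp130, measured 8.81, 8.86 and 11.5 FPKM in controls and 9.14, 9.26 and 11.2 FPKM after knockdown, and its groups overlapped. *PIM3*, another kinase of the family, had means of 24.8 ± 2.64 and 31.7 ± 2.08 FPKM (SD, n = 3) with no overlap, and its difference of 0.34 fell just under the limit. *PIM2* had means of 55.5 and 52.1 FPKM and lies on the X chromosome, which the rule left out.

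*MYB* (chr6:135181315-135219173 on the plus strand), a transcription factor of blood progenitors and an oncogene, measured 19.3, 19.2 and 21.2 FPKM in controls and 30.8, 30.5 and 36.4 FPKM after knockdown. The third library of each group was the highest, and the groups stayed apart, as the rule required. *MYB-AS1*, a non-coding gene that overlaps *MYB* on the opposite strand over 913 bases, had means of 0.769 FPKM in controls and 2.43 FPKM after knockdown. The strand setting of the counting is not given in the sources used here, so reads of the 2 genes cannot be told apart there.

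*TNFSF9* (chr19:6530999-6535928 on the plus strand) encodes 4-1BB ligand, a costimulatory protein for T cells. It measured 17.5, 17.8 and 14.5 FPKM in controls and 27.5, 26.8 and 25.7 FPKM after knockdown, 161% of the control mean. *FAS* (chr10:88990582-89015785 on the plus strand), the death receptor, was low, with 2.90, 2.57 and 3.27 FPKM in controls and 5.17, 4.88 and 5.25 FPKM after knockdown, 175% of the control mean. *KLF2* (chr19:16324817-16327874 on the plus strand), a zinc finger transcription factor of lymphocyte quiescence and homing, measured 25.97, 26.9 and 24.4 FPKM in controls and 40.8, 38.7 and 37.8 FPKM after knockdown. Every knockdown library was above every control library, as the rule required. The gaps on log2(FPKM + 1) were 0.51 in *TNFSF9*, 0.46 in *FAS* and 0.47 in *KLF2*. *KLF2* has processed pseudogenes whose reads could be confused with its own, and the most abundant, *KLF2P1*, had means of 6.81 and 5.62 FPKM, lower after knockdown.

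*IER5L*, related to an immediate early gene, measured 7.95, 8.07 and 7.23 FPKM in controls and 13.1, 13.2 and 12.7 FPKM after knockdown. *G3BP2*, an RNA-binding protein of stress granules, measured 15.6, 15.5 and 15.2 FPKM in controls and 22.1, 23.5 and 25.7 FPKM after knockdown. *SIPA1L1*, a GTPase-activating protein for Rap, measured 3.95, 4.07 and 3.38 FPKM in controls and 6.37, 6.15 and 5.77 FPKM after knockdown. The rule required groups without overlap, and in these 3 genes the spread within each group was small beside the difference. *CYB5R4*, a reductase of the cytochrome b5 type, measured 2.68, 2.94 and 2.83 FPKM in controls and 4.10, 4.29 and 5.41 FPKM after knockdown, with the third knockdown library the highest. *SETD7*, a lysine monomethyltransferase, measured 5.83, 6.34 and 5.99 FPKM in controls and 9.64, 9.02 and 9.03 FPKM after knockdown. *DEFB131B*, annotated as a beta-defensin, had only 16 to 34 reads per library, with 4.54, 6.11 and 5.68 FPKM in controls and 8.53, 8.80 and 10.5 FPKM after knockdown. These were the fewest reads of any member. On the opposite strand the protein-coding gene *AP002495.1* shares all 6109 bases of *DEFB131B*, with means of 2.17 FPKM in controls and 2.59 FPKM after knockdown. Without the strand setting, reads of both genes cannot be told apart.

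**Figure D2:**
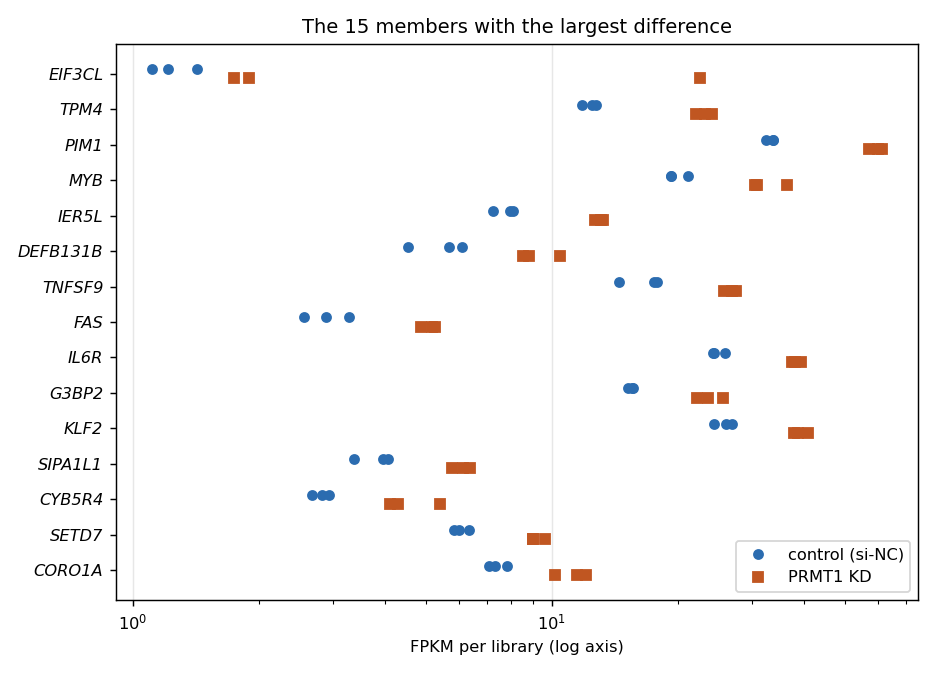
FPKM in each library (horizontal, log axis) for the 15 members with the largest difference, in order of difference. Circles are the 3 control libraries and squares the 3 PRMT1 KD libraries. In *EIF3CL* a single knockdown library stands at 22.5 FPKM while the other 2 lie near the controls, and in *TPM4* and *PIM1* the groups stand farthest apart.

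Genes of known pathways were looked up in 44 lists written from general knowledge with earlier results of these data known. Together they held 1813 genes at or above a mean of 1 FPKM, the level for testing. Limma called 145 of 13585 genes tested higher (1.07%) and 134 lower (0.986%) at an adjusted p under 0.05. Of the list genes 38 were called higher (2.10%) and 28 lower (1.54%), with a median log2 change of 0.03 against 0.01 over all genes tested. Of the members 67 were called higher, a count that the rule itself favours, and a call given below for a member rests on the contrast that chose it. The fit depended on all libraries: without any 1 library 3 to 25 members were called, as given at the end. Same-numbered libraries deviated together over the candidates, so calls that changed with the replicate number as a block in limma are given beside the lists. Members stood in 18 of the lists, 29 genes in all, and 82 members were in none.

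In the IL-6, JAK-STAT and cytokine receptor list, 2 of 25 tested genes were called higher, *PIM1* and *IL6R*, and 1 lower, *PTPN6*, which encodes the phosphatase SHP-1. The list's median log2 change was 0.04. With the block *PTPN6* was no longer called (adjusted p = 0.0705) and *PIM3* was called higher (adjusted p = 0.0489). In the list of MAPK feedback and immediate early genes, 2 of 24 were called higher, *MYC* and the member *SPRY1*, an inhibitor of receptor tyrosine kinase signalling, and none lower. *SPRY1* measured 5.68, 5.62 and 5.83 FPKM in controls and 7.95, 8.31 and 7.12 FPKM after knockdown. *JUNB*, an AP-1 subunit, was the other member of that list and was not called, with 48.8, 49.4 and 41.5 FPKM in controls and 64.8, 61.4 and 54.9 FPKM after knockdown. Library 3 was the lowest in both groups. With the block *JUNB* was called (adjusted p = 0.0437) and *SPRY1* was not (adjusted p = 0.0608).

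Death and stress genes contributed few members. Of 26 tested p53 targets 2 were called higher, *FAS* and *TP53INP1*, and none lower. *TP53INP1*, a p53-induced protein of autophagy and cell death, was abundant, at 54.5, 51.8 and 54.8 FPKM in controls and 70.4, 70.3 and 73.4 FPKM after knockdown. Of 36 genes of the BCL2 family and apoptosis list only *FAS* was called, and of 22 NF-kB genes *IER3* was called higher and *CCL3*, a chemokine, lower. *IER3*, an early response gene that limits apoptosis, measured 3.34, 4.02 and 4.02 FPKM in controls and 5.67, 5.84 and 5.28 FPKM after knockdown. With the block *IER3* was not called (adjusted p = 0.0601). Among FOXO factors and targets 3 of 29 were called higher, *KLF2*, *KLF6* and *TRIB1*, and none lower, and with the block all but *KLF6* (adjusted p = 0.0581). *HSPA8*, the constitutive HSC70 chaperone, was the most abundant member, at 250.3, 259.9 and 232 FPKM in controls and 291, 319 and 346 FPKM after knockdown. None of the 39 heat shock and chaperone genes was called in either direction by limma, with 3 higher and 4 lower at an unadjusted p under 0.05 and 1 called in each direction by voom.

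Cell division lists held 3 members. Of 42 CDK inhibitors, cyclins and RB family genes 5 were called higher, the members *CDK6* and *E2F7* and the cyclins *CCNA2*, *CCNB1* and *CCNB2*, and none lower, with a list median of 0.11. With the block 3 were called, all but *CCNB1* and *CCNB2*. *CDK6*, the G1 kinase that pairs with D cyclins, measured 13.9, 12.99 and 15.1 FPKM in controls and 20.4, 19.7 and 20.3 FPKM after knockdown. *CDK4*, its close relative, had means of 39.1 and 37.9 FPKM and was no member. *E2F7*, a repressor of E2F targets, measured 8.89, 8.61 and 8.73 FPKM in controls and 11.5, 11.7 and 11.5 FPKM after knockdown. Of 59 mitosis genes *MKI67* and *NEK2* were called higher, and the list median was 0.19. At an unadjusted p under 0.05 in limma, 27 of them were higher and 0 lower, and voom called 9 higher and 0 lower. With the block 4 mitosis genes were called higher, and *MKI67* was not among them (adjusted p = 0.0532). The only member in the mitosis list, the kinesin *KIF18A*, was not called and measured 3.78, 3.76 and 3.77 FPKM in controls and 4.92, 4.73 and 5.99 FPKM after knockdown. Of 51 DNA replication genes 2 were called higher, *RRM2* and *RFC5*, and neither is a member. At an unadjusted p under 0.05 in limma, 15 of the 51 were higher and 0 lower, and voom called 5 higher and 0 lower. With the block *RFC5* was not called (adjusted p = 0.0520).

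Of 44 chromatin methyltransferase and demethylase genes 4 were called higher, the members *DNMT3B* and *KMT2C* with *SETD5* and *KMT2A*, and none lower. With the block all 4 fell just outside the threshold, with adjusted p-values from 0.0539 (*KMT2C*) to 0.0606 (*DNMT3B*) in limma. *DNMT3B*, a de novo DNA methyltransferase, measured 13.4, 12.6 and 10.8 FPKM in controls and 16.3, 18.2 and 16.96 FPKM after knockdown. *DNMT3A*, the other de novo enzyme, had means of 2.08 and 1.84 FPKM. *TET3*, which oxidises methylated cytosine, was a member without a call, at 10.1, 9.06 and 8.06 FPKM in controls and 12.5, 12.6 and 11.3 FPKM after knockdown. *KMT2C*, a histone H3 lysine 4 methyltransferase, measured 8.499, 8.34 and 8.83 FPKM in controls and 11.9, 10.5 and 11.3 FPKM after knockdown.

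RNA factors formed another small set. Of 72 hnRNP, SR and splicing factor genes 4 were called higher, the member *SRSF2* with *HNRNPA1*, *RBM6* and *QKI*, and none lower. With the block *SRSF2* and *HNRNPA1* were called. *SRSF2*, an SR protein of exon recognition, measured 86.8, 91.2 and 87.9 FPKM in controls and 109, 116 and 121 FPKM after knockdown. *MBNL1*, a splicing regulator, was a member with a narrow gap, at 17.5, 17.2 and 22.4 FPKM in controls and 24.3, 23.5 and 26.7 FPKM after knockdown, and control library 3 came close to knockdown library 2. *DCP2*, the decapping enzyme of mRNA decay, measured 10.3, 10.5 and 11.8 FPKM in controls and 15.1, 13.6 and 17.4 FPKM after knockdown and was not called, while *PABPC1* and *PABPC4* were the 2 called higher among 65 translation and decay genes. With the block *DCP2* was called (adjusted p = 0.0464) and *PABPC1* was not (adjusted p = 0.0686).

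Cytoskeletal members included *CORO1A*, a coronin of lymphocyte actin, at 7.82, 7.08 and 7.33 FPKM in controls and 12.04, 11.5 and 10.2 FPKM after knockdown. *VIM*, the intermediate filament vimentin, measured 40.9, 41.6 and 38.9 FPKM in controls and 49.8, 53.8 and 57.5 FPKM after knockdown. In nutrient signalling, *RRAGD*, a Rag GTPase that carries amino acid signals to mTORC1, was the only gene called of 48, at 15.9, 16.8 and 16.01 FPKM in controls and 21.9, 21.99 and 22.9 FPKM after knockdown.

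*GANAB* and *PRKCSH* encode the catalytic and the regulatory subunit of glucosidase II, the ER enzyme that trims glucose from new glycoproteins, and were among the 5 most abundant members. *GANAB* measured 113, 114 and 102 FPKM in controls and 156, 159.8 and 151 FPKM after knockdown. *PRKCSH* measured 61.3, 60.5 and 54.97 FPKM in controls and 82.1, 77.7 and 67.95 FPKM after knockdown. Both were lowest in the third library of each group. *GPAA1*, a subunit of the transamidase that attaches GPI anchors in the ER, measured 110.2, 119 and 106 FPKM in controls and 147, 147 and 134 FPKM after knockdown. *GANC*, a paralogue of *GANAB*, had means of 2.11 and 2.20 FPKM. None of the 3 members was in a list, and of 45 genes of the unfolded protein response and ER folding list limma called *HERPUD1* lower and none higher. At an unadjusted p under 0.05 that list had 5 genes higher and 8 lower, voom called 1 higher and 6 lower, and the list median was -0.06.

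The remaining lists with members each held few. *PELI1* and *OTUD4*, a ubiquitin ligase and a deubiquitinase, were the members of a list of 78 tested genes, in which *OTUD4* was called higher and *RNF11* lower. *PELI1* measured 5.84, 5.71 and 6.79 FPKM in controls and 7.85, 8.87 and 8.82 FPKM after knockdown, and *OTUD4* 10.6, 10.3 and 11.1 and 13.6, 13.6 and 15.5 FPKM. *PDE8A*, a cAMP phosphodiesterase, was the only call among 31 G protein signalling genes, at 5.83, 5.74 and 5.87 FPKM in controls and 7.60, 7.70 and 8.18 FPKM after knockdown. With the block *RGS1* was also called, lower (adjusted p = 0.0437). *GPR160*, an orphan receptor, was not called and measured 32.2, 31.5 and 34.9 FPKM in controls and 38.2, 40.9 and 48.3 FPKM after knockdown. *NR1D2*, the clock repressor REV-ERB beta, measured 10.6, 8.84 and 10.4 FPKM in controls and 12.3, 12.7 and 15.1 FPKM after knockdown, and none of 19 clock genes was called by limma, with 3 higher and 1 lower at an unadjusted p under 0.05 and 1 called in each direction by voom. Of the 26 lists with no member, the 26 tested interferon-stimulated genes had 4 called lower, among them *ISG15* and *OAS1*, and the 73 oxidative phosphorylation genes had 3 called lower. At an unadjusted p under 0.05 in limma, the interferon list had 6 higher and 10 lower, and voom called 1 higher and 7 lower. The oxidative phosphorylation list had 1 higher and 30 lower, and voom called 0 higher and 17 lower. Its median log2 change was -0.10.

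The file's own annotation marks 15 members as transcription factors, 13.5% of them, against 7.27% of candidates and 2.91% of the 103 genes that met the mirrored rule and were lower after knockdown. These shares were not tested. Of the 15, 9 were C2H2 zinc finger genes, 8.11% of members against 2.94% of candidates. They were *KLF2*, *PRDM9*, *CTCFL*, *HIVEP2*, *ZNF367* and 4 ZNF genes of low level, *ZNF107*, *ZNF721*, *ZNF92* and *ZNF138*. Those 4 had the narrowest gaps of all members, 0.01 to 0.04 on log2(FPKM + 1). With a trend against transcript GC removed, as described below, only *KLF2*, *PRDM9* and *CTCFL* of the 9 were still chosen. Of the other transcription factors, *NR1D2* and *E2F7* were no longer chosen. *ZNF107* measured 3.20, 2.75 and 4.28 FPKM in controls and 4.63, 4.31 and 5.65 FPKM after knockdown. *ZNF138* measured 3.90, 3.96 and 4.76 FPKM in controls and 4.78, 5.34 and 6.93 FPKM after knockdown. In both, the third control library was the highest control and nearly met the lowest knockdown library. None of the 126 KRAB zinc finger genes tested was called in either direction by limma, with 10 higher and 3 lower at an unadjusted p under 0.05, and voom called 3 higher and 1 lower. Their median was 0.08.

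*ZNF107* and *ZNF138* were also the only 2 members with no other protein-coding gene between them, 82806 bases apart on chromosome 7, and *ZNF92* lies on the same chromosome at chr7:65373799-65401135. The last 150 bases of their promoters, chosen after the values were seen, show the same pair of CCAAT words and a CTTCCGG word (CCGGAAG on the other strand) in the same order at *ZNF107* (chr7:64666033-64666182), *ZNF138* (chr7:64794328-64794477) and *ZNF92* (chr7:65373755-65373904), with capitals as above.
ZNF107: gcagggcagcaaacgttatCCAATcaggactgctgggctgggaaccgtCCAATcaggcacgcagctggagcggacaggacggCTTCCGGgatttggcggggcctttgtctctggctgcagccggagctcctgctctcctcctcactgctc
ZNF138: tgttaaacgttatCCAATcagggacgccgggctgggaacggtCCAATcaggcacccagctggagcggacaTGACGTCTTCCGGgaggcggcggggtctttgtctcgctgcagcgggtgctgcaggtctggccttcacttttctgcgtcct
ZNF92: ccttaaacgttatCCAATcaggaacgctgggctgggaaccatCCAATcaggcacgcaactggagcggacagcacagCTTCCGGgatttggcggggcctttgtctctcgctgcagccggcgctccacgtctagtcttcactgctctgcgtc
Without gaps, the 300-base promoters of *ZNF138* and *ZNF92* were identical at 209 of 300 positions (69.7%), and that of *ZNF107*, moved by 6 bases, matched *ZNF92* at 67.0% and *ZNF138* at 54.1%. Genes of this family can share reads, so their values are uncertain. Copies of similar sequence may also limit *ANKRD36* and *APOBEC3B*, which was not tested. *APOBEC3A* had 1 read in KD 1 and 0 in every other library, while *APOBEC3B* had 722 to 919 reads per library.

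*PRDM9* and *CTCFL* are known as germ line genes, the first a histone methyltransferase that sets meiotic recombination sites and the second a testis paralogue of CTCF. *PRDM9* measured 12.04, 11.01 and 12.4 FPKM in controls and 17.1, 17.3 and 16.1 FPKM after knockdown. *CTCFL* measured 24.6, 25.5 and 23.1 FPKM in controls and 31.3, 33.1 and 33.7 FPKM after knockdown. Both were well expressed in control cells already. Several members outside the lists act in DNA repair or at centrosomes, among them *LIG3*, *NEIL3* and *ATAD5*, and *PLK4*, *CENPJ* and *CEP152*. *LIG3*, a DNA ligase, measured 10.9, 11.1 and 10.2 FPKM in controls and 14.4, 14.6 and 14.6 FPKM after knockdown. *PLK4*, the kinase that starts centriole duplication, measured 9.69, 10.3 and 12.3 FPKM in controls and 13.7, 13.5 and 15.4 FPKM after knockdown. These genes were grouped after their values were seen, and of the 49 tested genes in the DNA damage list none was called by limma in either direction, with 9 higher and 1 lower at an unadjusted p under 0.05 and 2 called higher and 1 lower by voom.

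Members were spread over 20 of the 22 autosomes, with none on chromosomes 18 and 21. Chromosome 4 held 10, which is 3.58% of its 279 candidates, and chromosome 15 held 8, which is 3.19% of 251. The 10 on chromosome 4 were *G3BP2*, *SETD7*, *ZNF721*, *NEIL3*, *TIFA*, *FSTL5*, *SPRY1*, *OTUD4*, *PLK4* and *GALNT7*. With a trend against transcript GC removed, as described below, only *G3BP2* and *SETD7* of these 10 were still chosen. On chromosome 1 the share was 0.601%, 5 of 832. No test was made of these shares.

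In sequence, members differed from the mirrored lower set by their medians. The median transcript of a member had 44.8% GC, against 49.4% in candidates and 56.1% in the lower set. Exonic length was a median of 5676 bases in members, 5076.5 in candidates and 2563 in the lower set. Genomic span was a median of 44269 bases in members, 30995.5 in candidates and 12330 in the lower set. The median number of exons was 11 in members, 10 in candidates and 4 in the lower set. The part of the transcript after the coding sequence was a median of 1212 bases in members, 920 in candidates and 421 in the lower set. In exonic length, span, exon number and this last stretch the members lay nearer to the candidates than the lower set did. The median observed over expected CpG ratio of the promoters was 0.815 in members, 0.783 in the lower set and 0.855 in candidates. Of the members 49.5% fell in the lowest GC tertile of the candidates and 17.1% in the highest, against 6.80% and 59.2% of the lower set. The median difference of the candidates themselves ran the same way, 0.07 in the lowest GC tertile and -0.04 in the highest.

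**Figure D3:**
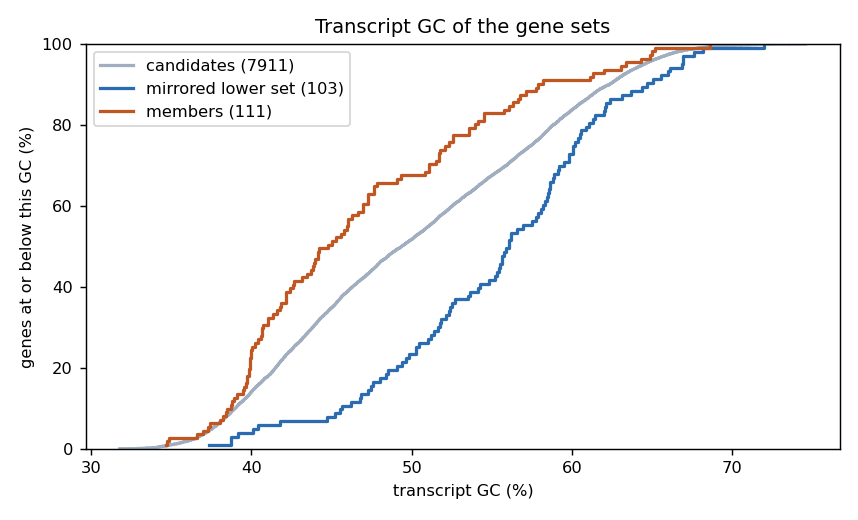
Share of genes (vertical, percent) with a transcript GC content at or below the value on the horizontal axis (percent), for the 111 members, the 103 genes of the mirrored lower set and the candidates with a GC value. The curve of the members lies to the left of the candidates, with a median of 44.8%, and that of the lower set to the right, with 56.1%.

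GC content also moved with the libraries. The third library of each group deviated from the other 2 according to GC: over candidates, the deviation of the third control library and transcript GC had a Spearman correlation of -0.64 (7911 genes of 1 library set, which are not independent), and that of the third knockdown library -0.73. Among the 55 members in the lowest GC tertile, the third control library was the highest control in 40 and the third knockdown library the highest knockdown in 47. Among the 19 members in the highest GC tertile, these counts were 1 and 0. In *MBNL1*, *TOP2B*, *ZNF107*, *ZNF138* and *ZNF721* the third library was the highest of both groups, and in *GANAB*, *PRKCSH* and *JUNB* the lowest of both. *TOP2B*, DNA topoisomerase II beta, with 38.7% GC, measured 43.5, 40.03 and 50.6 FPKM in controls and 58.1, 55.8 and 63.97 FPKM after knockdown.

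When a smooth trend against transcript GC was removed from each library, an alternative chosen after seeing the data, the same rule chose 73 genes. Of these 64 were members and 47 members were no longer chosen, with a median GC of 40.8% against 51.6% for those kept. All 39 members with the largest differences were kept, among them *TPM4*, *PIM1*, *MYB*, *IL6R*, *FAS*, *KLF2*, *GANAB* and *CDK6*. Not kept were *TP53INP1*, *SRSF2*, *HSPA8*, *KMT2C*, *E2F7* and the 4 narrow ZNF genes. The part of RNA quality or library preparation in this was not tested.

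**Figure D4:**
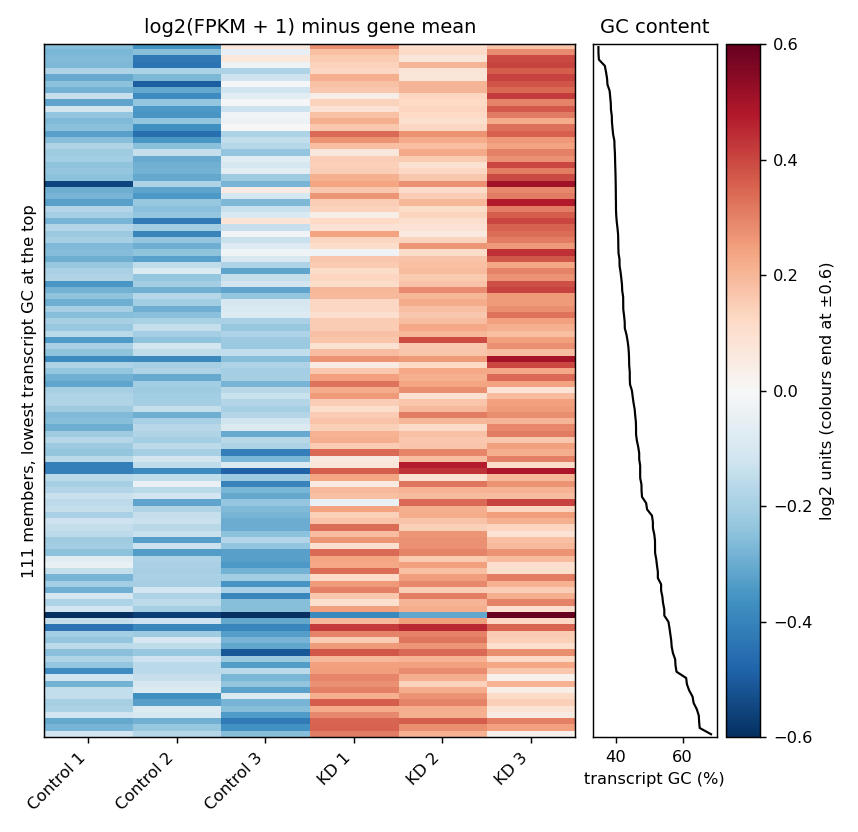
Each row is a member, ordered by transcript GC from the lowest at the top, and each column a library. Colour gives log2(FPKM + 1) minus the gene's mean over the 6 libraries, with colours ending at ±0.6, and the line on the right gives GC in percent. Rows at the top are palest in control 3 and darkest red in KD 3, and rows at the bottom are darkest blue in control 3 and palest red in KD 3.

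Values that took no part in the choice were read by applying the rule to 4 libraries and measuring the 2 left out. Leaving out the libraries numbered 1, 138 genes were chosen, and the left-out knockdown library was above the left-out control library in 136 of them (98.6%), with a median difference of 0.35 on log2(FPKM + 1). Over all candidates the share was 51.6% and the median 0.01. Leaving out the libraries numbered 2 gave 137 genes, of which 136 were above (99.3%, median 0.37, candidates 52.5%). Leaving out the libraries numbered 3 gave 126 genes, of which 122 were above (96.8%, median 0.35, candidates 59.5%). When the left-out libraries carried different numbers, the share ranged from 97.8% down to 70.1%, and it was lowest where control 3 was left out with KD 1 or KD 2. Those 2 choices took 251 genes each, with left-out medians of 0.13 and 0.11. Of these genes 90 and 89 were members, and 15.5% and 19.5% reached 0.35 in the left-out libraries. Of the 111 members, 38 were chosen in all 9 choices, among them *TPM4*, *PIM1*, *MYB*, *IL6R*, *FAS*, *KLF2* and *GANAB*, and 4 in fewer than 5.

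**Figure D5:**
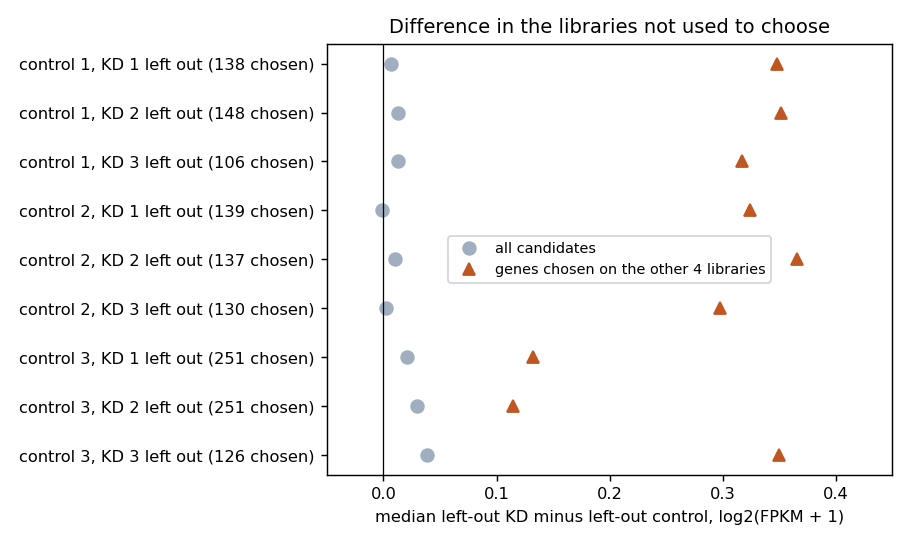
Median of the left-out knockdown minus the left-out control value in log2(FPKM + 1) (horizontal) for each of the 9 pairs of left-out libraries (vertical, with the number of genes chosen). Triangles are the genes chosen on the other 4 libraries and circles all candidates. Triangles lie between 0.30 and 0.37 in 7 pairs and at 0.13 and 0.11 where control 3 was left out with KD 1 or KD 2.

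At the edges of the rule, *HSDL2*, *MAPKBP1* and *ZNF138* were the last members inside the limit on the difference, at 0.351, 0.351 and 0.352. *RASSF8* and *RRM2* were just outside, both at 0.349. At the limit on level, *DCBLD2*, *ANKRD36* and *HAVCR1* were just inside, with means of 3.21, 3.26 and 3.43 FPKM, and *ZNF675*, *AAMDC* and *TEAD4* just outside, with 2.99, 2.97 and 2.86 FPKM. The values on either side of each limit differ by little, so the list is a cut through a continuous range. Among the genes left out because the groups overlapped, *SMN1* had the largest difference, 1.06, and is another gene with a near-identical copy.

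Of the 111 members, 83 overlapped another annotated gene, 73 of them on the opposite strand, and for 39 an overlapping gene had a mean of at least 1 FPKM. *MAPK6* overlapped 4 such genes and *SRSF2* 1, *MFSD11*, with means of 7.48 and 8.18 FPKM. Pseudogenes of any type named after a member were listed for 12 members and reached 1 FPKM for 2, *KLF2* and *HSPA8*. Overlaps on the opposite strand matter here because the strand setting is not given in the sources used here.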

How the data were processed

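Total RNA of MM.1S cells was sequenced in 3 control and 3 PRMT1 KD libraries. The authors deposited 1 table of FPKM per gene. Per the labels, reads were counted with featureCounts 1.5.0-p3 on hg38. The aligner, annotation release and strand setting are not given in the sources used here. Whole reads were worked back from the FPKM values and gene lengths (100% of values whole within 0.05 reads), and the deposited FPKM already carried a size-factor scaling between libraries, which affects every difference.

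Members were chosen on log2(FPKM + 1). The group comparison was fitted with limma 3.58.1 (R 4.3.3, trended variance) on genes with a mean of at least 1 FPKM, with Benjamini-Hochberg adjustment, after a test on simulated data. Nothing in the labels ties replicates to separate cultures, so p-values measure the spread between these libraries, which may be technical. Same-numbered libraries were checked for pairing by the correlation of their deviations from the group means. Over the 7918 candidates it was 0.219, 0.295 and 0.509, each library highest with its own number, and over the 13585 genes tested, non-coding genes included, 0.0200, 0.0631 and 0.101. Over the candidates, control 1 with KD 2 gave 0.209 and control 2 with KD 1 gave 0.202, so the numbers hardly separate libraries 1 and 2. Pairs of a library 3 with another number ran from -0.312 to -0.389, so the pattern mostly sets library 3 apart. The pairing comes from these data and the replicate numbers, not from a stated batch, and calls were compared with the number as a block. The genes named were *PRMT1*, the 15 members with the largest differences, the 5 with the highest levels, the 5 with the widest gaps, up to 4 per list, those nearest to both limits and members that neighbour each other, with others said to be chosen after their values were seen or shown as relatives of members. Some results that this rule would name are not reported here. The members and lists were chosen with earlier results of these data known. Alternatives changed the pseudocount, the filters, the scaling, the variance model and the libraries used.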

Additional observations from a re-analysis of the deposited data

How the results depend on the processing

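The rule took 93 to 164 genes with another pseudocount, level filter, library scaling or no condition on overlap, against 111, except with TPM (259), a limit of 0.25 (371) and a limit of 0.5 (20). Leaving out a library gave 104 to 184 genes, the most without control replicate 3. Removing the GC trend, chosen after seeing the data, gave 73. The genes called higher, 145 with limma, depended on the variance model and the number of libraries: 15 without a trended variance, 7 with an ordinary linear model, 15 with no filter on low values, 252 at a mean of at least 5 FPKM, 222 with TPM, 410 with voom on reads worked back, 12 with libraries 1 and 2 only (chosen after seeing the data), and 4 to 44 without a library. In the same order, members called (67) numbered 10, 2, 12, 89, 76, 103, 9 and 3 to 25, and list genes called (38) numbered 6, 4, 7, 76, 62, 112, 3 and 2 to 11. *PRMT1* stayed called under each, with a log2 change of -2.09 to -2.23. For 47 named members all 740 values under the alternatives stayed above 0. Of these values, 243 lost a call that the limma fit reported above had made, and 32 gained one. The other 465 matched that fit, called or not called, and several of the 47 members were not called in it. The rule had already set every knockdown value of a member above every control value, so most of these alternatives could not turn the sign. A block for replicate number, which pairs the libraries, left 105 genes, 60 members and 30 list genes called higher, each within 1.5 times the count without it, although many single calls near the threshold changed. For genes chosen on 4 libraries, the share above 0 in the left-out libraries averaged 98.2% over the 3 same-numbered pairs and 91.2% over all 9. The cause of these shifts was not tested. Depth limits the 5 members with under 100 reads in a library.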
